A study of Mus musculus with 3 samples.

Results

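Connexins and pannexins are channel proteins of the cell membrane. The 9 genes described here were chosen by name and were Gja1, Gja4, Gja5, Gjb2, Gjb6, Gjc1, Panx1, Panx2 and Panx3, each found by its symbol among the 23284 genes listed. They were measured by RNA-seq in 3 libraries of cells sorted from the developing digits of mouse embryos, 1 library per population, all from mice given as C57/bl6. Lgr5+ cells carried the Lgr5-eGFPCreERT2/+ genotype, were GFP-positive and came from forelimb digits at E14.5 (E for embryonic day), and the labels place them in the interzone, the band of cells at a future joint. The GFP-negative cells of the same genotype, day and digits made up the Lgr5− population, labelled non-interzone. Sox9+ cells carried Sox9-eGFP/+, were GFP-positive and came from digits at E13.5, with no limb named. The sources used here give neither the number of embryos nor any pooling, and nothing but the GFP signal defined a population, so each library may hold several cell types.

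Connexins form a ring in the membrane of a cell that docks with a ring of the next cell, and the joined channel, the gap junction, lets ions and small metabolites pass between the cytoplasms. Pannexins have a similar membrane layout and no marked sequence likeness to connexins, and they act mainly as channels of a single membrane that release ATP. In the limb, Gja1 is the connexin of condensing mesenchyme and osteoblasts, and mutations of its human counterpart cause oculodentodigital dysplasia, in which fingers are fused. Panx3 is known from mouse pre-hypertrophic chondrocytes, osteoblasts and skin.

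The difference between both families could be read in their coding sequences. Connexins carry conserved cysteines in each extracellular loop, which hold the docking surface together. Cysteine codons (TGT or TGC) with 6 and then 3 codons between them were searched in the coding sequences of GENCODE M21 (GRCm38). This spacing was present once in each of the 6 connexins described here, in 19 of the 20 mouse connexin genes and in none of the 3 pannexins. The 36 bases of that stretch are shown for the 6 connexins, since they mark these genes as a family, with the cysteine codons in capitals. The stretch covers codons 54 to 65 in Gja1, Gja4 and Gja5 and codons 53 to 64 in Gjb2, Gjb6 and Gjc1.
Gja1: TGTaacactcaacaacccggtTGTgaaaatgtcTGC
Gja4: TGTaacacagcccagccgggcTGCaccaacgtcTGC
Gja5: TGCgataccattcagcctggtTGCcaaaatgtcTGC
Gjb2: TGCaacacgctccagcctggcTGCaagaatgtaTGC
Gjb6: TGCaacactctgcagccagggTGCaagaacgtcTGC
Gjc1: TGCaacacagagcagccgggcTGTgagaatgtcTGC
Over these 36 bases the 15 pairs of genes shared between 23 bases (63.9%, Gja4 and Gja5) and 30 bases (83.3%, Gjb2 and Gjb6). The cysteine codons of the second loop, with 4 and then 5 codons between them, were likewise found in each of the 6 connexins, in 18 of the 20 genes and in none of the 3 pannexins. Each of the 6 connexins had its whole coding sequence in 1 exon, of 678 bases in Gjb2 to 1188 bases in Gjc1 without the stop codon. The pannexins had 5 coding exons in Panx1, 3 in Panx2 and 4 in Panx3, of 1278, 2031 and 1176 coding bases.

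Levels are given in FPKM (fragment counts divided by gene length and library total) as the authors deposited them. The 3 libraries were alike in breadth, with 11924 to 12002 genes at 1 FPKM or more. Lgr5 stood at 26.8 FPKM in Lgr5+ cells, 1.36 FPKM in Lgr5− cells and 3.48 FPKM in Sox9+ cells, and Sox9 at 332, 147.1 and 254.7 FPKM in the same order of libraries. The reporter gene of the Sox9+ sort was therefore highest in the Lgr5+ library. Without read counts the depth behind a value is unknown, and counting error could not be computed. With 1 library per population, no difference has a replicate check, no p-value was computed and each comparison is between libraries. Folds were taken from FPKM + 1, a scale on which low genes look more alike than their FPKM. A gene counted as measured at 1 FPKM or more in the higher of the libraries compared, and as different at 2-fold or more. In bulk RNA, fewer cells of a type and less RNA per cell cannot be told apart.

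Gja1 and Gjc1 were the connexins of these cells. Gja1 (chromosome 10, 56377330 to 56402513, on the plus strand, GRCm38, as for all coordinates here) stood at 56.8 FPKM in Lgr5+ cells, 51.6 FPKM in Lgr5− cells and 69.1 FPKM in Sox9+ cells. Gjc1 (chromosome 11, 102799579 to 102819700, on the minus strand), a connexin of heart, vessel wall and bone-forming cells, stood at 60.7, 50.9 and 43.5 FPKM in the same libraries. Both lay at percentiles 91.6 to 94.7 of all listed genes. Together they made up 92.6% of the summed FPKM of the 20 connexin genes in Lgr5+ cells, 95.3% in Lgr5− cells and 95.2% in Sox9+ cells. Their order differed between libraries. Gjc1 stood at 1.07 times the level of Gja1 in Lgr5+ cells, at 0.988 times in Lgr5− cells and at 0.628 times in Sox9+ cells. This ratio is taken within a library and does not change with a scaling factor of the library. Across libraries neither gene passed 2-fold. Gja1 was 1.21-fold lower in Lgr5+ than in Sox9+ cells and 1.33-fold lower in Lgr5− than in Sox9+ cells. Between Lgr5+ and Lgr5− cells its fold was 1.10, and this small difference turned to a log2 ratio of −0.02 with quantile normalization. Gjc1 was 1.39-fold higher in Lgr5+ than in Sox9+ cells, 1.17-fold higher in Lgr5− than in Sox9+ cells and 1.19-fold higher in Lgr5+ than in Lgr5− cells.

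**Figure D1:**
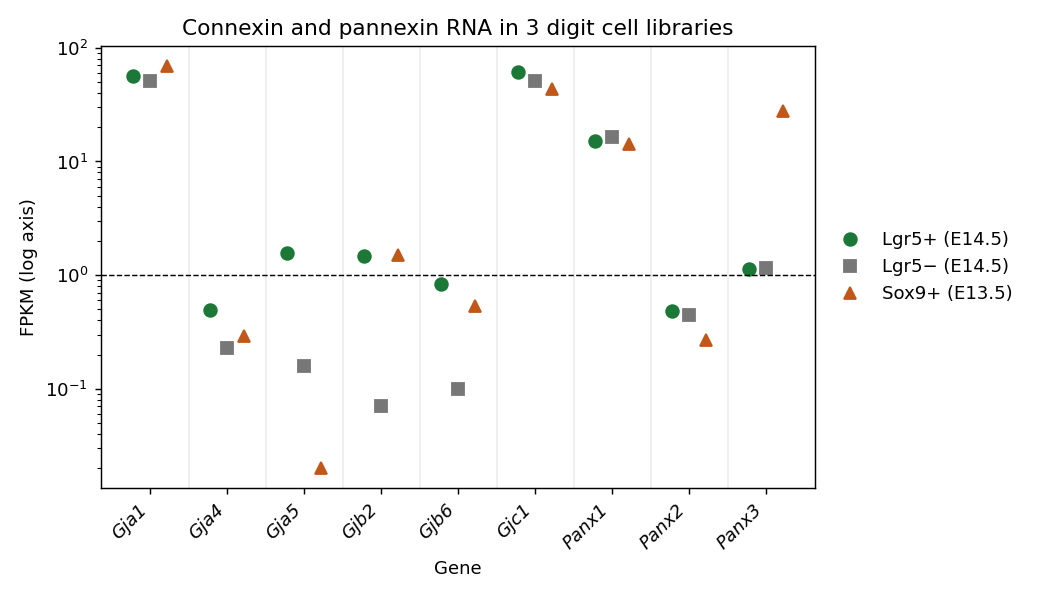
FPKM of the 9 genes (vertical log axis) in the Lgr5+, Lgr5− and Sox9+ libraries, 1 point per library, with a dashed line at 1 FPKM and no error bars because each population has 1 library. Gja1, Gjc1 and Panx1 were high in all 3 libraries, Panx3 reached 27.7 FPKM in Sox9+ cells alone, and the other 5 genes stayed under 2 FPKM.

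The promoter of Gja1 is shown because this gene carried the main connexin signal in the Sox9+ library and ranked with Gjc1 in the others. The sequence runs 5′ to 3′ on the plus strand, from 250 bases before the RefSeq transcription start to 50 bases after it (GRCm38.p6, chr10:56377050-56377349).
Gja1: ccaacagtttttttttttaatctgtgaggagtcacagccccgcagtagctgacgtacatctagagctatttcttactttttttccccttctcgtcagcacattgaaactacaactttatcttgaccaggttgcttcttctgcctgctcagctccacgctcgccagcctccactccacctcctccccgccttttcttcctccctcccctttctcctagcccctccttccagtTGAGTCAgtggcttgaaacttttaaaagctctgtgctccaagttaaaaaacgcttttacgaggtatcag
Capitals mark the AP-1 site, the letters TGANTCA, which begins 19 bases before the start. Windows of this length were available for 6 of the 9 genes, without Gjc1, Panx2 and Panx3. The AP-1 letters occurred in Gja1 alone of the 6, and in 7.81% of 32851 RefSeq promoter windows. The GC box (GGGCGG, or CCGCCC on the other strand) occurred in Gja4, Gja5 and Gjb2 and in 35.7% of all windows. The CCAAT letters (ATTGG on the other strand, 37.4% of windows) and the Runx letters (TGTGGT, or ACCACA on the other strand, 16.8% of windows) occurred in Panx1 alone, and the TATA box (TATAAA, or TTTATA on the other strand, 13.6% of windows) in none. No matches of different motifs overlapped. A match of letters is no evidence of binding.

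On the scale of FPKM + 1, Panx3 had the largest difference among the 9 genes. Panx3 (chromosome 9, 37659902 to 37669235, on the minus strand) stood at 1.14 FPKM in Lgr5+ cells, 1.16 FPKM in Lgr5− cells and 27.7 FPKM in Sox9+ cells. Both E14.5 libraries were near the middle of all listed genes, at percentiles 49.4 and 49.8, and the Sox9+ library was at percentile 86.9. Panx3 was 13.4-fold lower in Lgr5+ than in Sox9+ cells and 13.3-fold lower in Lgr5− than in Sox9+ cells. As a plain ratio of FPKM, the Sox9+ level was 24.3 times that of Lgr5+ cells and 23.9 times that of Lgr5− cells. On that plain scale Gja5 differed more, with an Lgr5+ level 79.0 times that of Sox9+ cells, where it stood at 0.02 FPKM. The Panx3 difference stayed past 2-fold under each of the 12 alternative settings in both comparisons. Those settings that change only the minimum or the fold threshold leave its ratio as it was, so they are no further check of it. The day, the reporter line and possibly the limb also differed between the Sox9+ library and the others, and their parts cannot be told apart.

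Panx1 did not share this pattern. Panx1 (chromosome 9, 15002128 to 15045478, on the minus strand), the widely expressed ATP release channel, stood at 15.1 FPKM in Lgr5+ cells, 16.3 FPKM in Lgr5− cells and 14.2 FPKM in Sox9+ cells, and its folds between libraries were at most 1.14. Panx3 was therefore the leading pannexin in Sox9+ cells, at 1.94 times Panx1, and Panx1 led in the others, with Panx3 at 0.0756 times Panx1 in Lgr5+ cells and 0.0711 times in Lgr5− cells. Panx2 (chromosome 15, 89059734 to 89073567, on the plus strand), known mainly from the brain, stood at 0.48, 0.45 and 0.27 FPKM in Lgr5+, Lgr5− and Sox9+ cells and was measured in no comparison. The annotation places the antisense gene 1810021B22Rik over Panx2, and the kit does not mark strand, so reads of this pair cannot be told apart. The summed FPKM of the 3 pannexins was 16.7 in Lgr5+ cells, 17.9 in Lgr5− cells and 42.2 in Sox9+ cells.

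Genes of chondrocyte maturation and early bone were read beside Panx3. Of 11 such genes measured, 10 were at least 2-fold lower in Lgr5+ than in Sox9+ cells, beside 3.96% of all measured genes. Their median log2 ratio was −2.27, against a median of 0.06 over all measured genes. In Lgr5− against Sox9+ cells, 6 of 11 were at least 2-fold lower, beside 4.94% of all measured genes. The median there was −1.11, against −0.01 over all measured genes. Smpd3, a sphingomyelinase needed for matrix mineralization, was the member of this list closest to Panx3, at 0.19 FPKM in Lgr5+ cells, 0.29 FPKM in Lgr5− cells and 30.7 FPKM in Sox9+ cells. Spp1, which encodes osteopontin, stood at 2.13, 2.5 and 14.7 FPKM. Ibsp, the bone sialoprotein gene, was listed at 0 in Lgr5+ and in Lgr5− cells and stood at 3 FPKM in Sox9+ cells. Smpd3 and Spp1, like Panx3, differed by less than 2-fold between Lgr5+ and Lgr5− cells.

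The Runx genes had another pattern. Runx2, a transcription factor of chondrocyte maturation and bone that is known to act on Panx3 in mouse cells, stood at 2.1 FPKM in Lgr5+ cells, 10.7 FPKM in Lgr5− cells and 12 FPKM in Sox9+ cells. Runx3, which acts with it in chondrocytes, stood at 1.81, 10.9 and 12.5 FPKM. Lgr5− and Sox9+ cells were thus alike in both Runx genes, with log2 ratios of −0.15 and −0.19, where they differed in Panx3 by −3.73. Lgr5+ and Lgr5− cells differed in Runx2 by −1.92 and in Runx3 by −2.08 on the same scale, where their Panx3 differed by −0.01. The part of Runx2 and Runx3 in the Panx3 values was not tested. Sp7, a bone transcription factor downstream of Runx2, stood at 0.73, 5.07 and 12.9 FPKM, and Alpl, the phosphatase of mineralizing cells, at 1.2, 5.16 and 16.4 FPKM, so for both the Lgr5− library lay between the other libraries. Ihh, the hedgehog ligand of pre-hypertrophic cells, stood at 23.5, 45.4 and 68.7 FPKM. Col10a1, the collagen of hypertrophic cells, stood at 2.24, 2.17 and 5.85 FPKM.

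**Figure D2:**
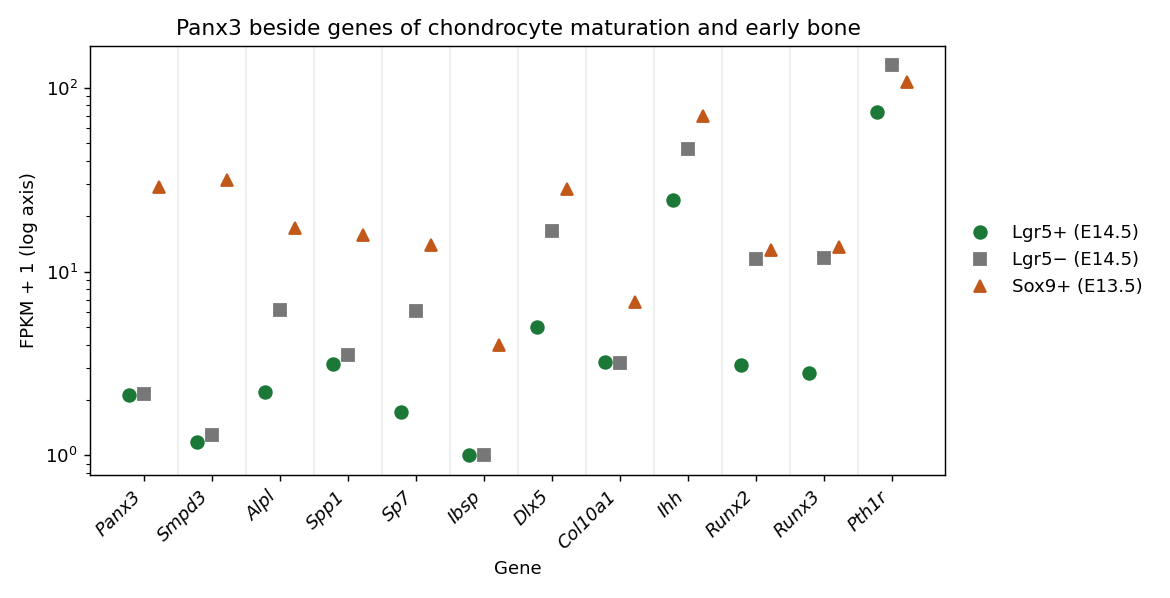
FPKM + 1 (vertical log axis) of Panx3 and 11 genes of chondrocyte maturation and early bone in the Lgr5+, Lgr5− and Sox9+ libraries, 1 point per library. Panx3, Smpd3, Spp1 and Ibsp were low in both E14.5 libraries, whereas Runx2 and Runx3 were low in Lgr5+ cells alone.

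Over the whole table, the gene nearest to Panx3 was Hoxc10, by the Euclidean distance of mean-centred log2(FPKM + 1) over the 3 libraries among 9289 genes of at least 5 FPKM in some library. Hoxc10, a homeobox gene of the hindlimb, lay at a distance of 0.148 and stood at 0.37 FPKM in Lgr5+ cells, 0.21 FPKM in Lgr5− cells and 17 FPKM in Sox9+ cells. The next were Snora17, a small nucleolar RNA listed at 0 in Lgr5+ and in Lgr5− cells, at 0.363, and AA465934 at 0.473. The heat shock gene Hspb1 lay at 0.56, with 17.1, 11.3 and 275.9 FPKM, and Snora62 at 0.584. A pattern over 3 libraries is set by 2 differences alone. The part of a difference in limb or in stress between libraries in the Panx3 values was not tested.

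Among the 6 members measured in the comparison of Lgr5+ with Lgr5− cells, Gja5 and Gjb2 were at least 2-fold higher in Lgr5+ cells and none was 2-fold lower. Of all 12438 genes measured there, 3.64% were at least 2-fold higher and 1.89% at least 2-fold lower. In Lgr5+ against Sox9+ cells, 6 members were measured, of which Gja5 was higher and Panx3 lower, beside 4.33% of 12492 genes higher and 3.96% lower. In Lgr5− against Sox9+ cells, 5 members were measured, of which Gjb2 and Panx3 were lower and none was higher, beside 4.94% of 12482 genes lower and 3.08% higher. After rescaling to TPM the share of higher genes among those past 2-fold was 64.8% in place of 52.2% for Lgr5+ against Sox9+ cells, and 52.3% in place of 38.4% for Lgr5− against Sox9+ cells. The counts of members are too small to be set against these shares as more than a description. The 3 comparisons share libraries and are not independent of each other. Gja4, Gjb6 and Panx2 were under 1 FPKM in each library and were measured in no comparison.

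**Figure D3:**
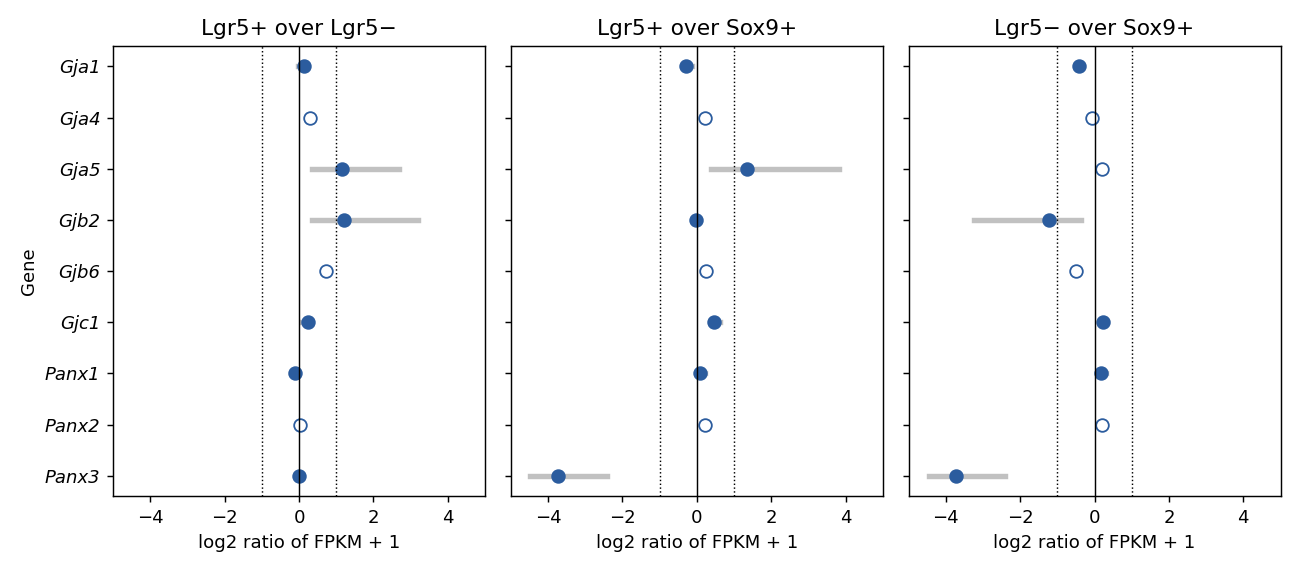
Log2 ratio of FPKM + 1 (horizontal axis) of the 9 genes for Lgr5+ over Lgr5−, Lgr5+ over Sox9+ and Lgr5− over Sox9+. Filled points are genes at 1 FPKM or more in the higher library, open points are lower genes, grey bars span the 12 alternative settings and dotted lines mark 2-fold. Panx3 lay beyond −2 under all settings in both comparisons with Sox9+ cells, and the bars of Gja5 and Gjb2 crossed the 2-fold line where these genes were past it.

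Gjb2 and Gjb6 encode the paired connexins of epidermis and inner ear, and their human counterparts are deafness genes. Gjb2 (chromosome 14, 57098600 to 57104702, on the minus strand) stood at 1.46 FPKM in Lgr5+ cells, 0.07 FPKM in Lgr5− cells and 1.51 FPKM in Sox9+ cells. The Lgr5+ and Sox9+ libraries were thus nearly equal and the Lgr5− library was low. Gjb2 was 2.30-fold higher in Lgr5+ than in Lgr5− cells and 2.35-fold lower in Lgr5− than in Sox9+ cells. As plain ratios over the 0.07 FPKM of Lgr5− cells, the Lgr5+ level was 20.9 times and the Sox9+ level 21.6 times as high. Gjb6 (chromosome 14, 57123303 to 57133611, on the minus strand) stood at 0.83, 0.1 and 0.54 FPKM, lowest in Lgr5− cells too, and stayed under 1 FPKM. Rescaling to TPM raised all values of each library, while the minimum and the pseudocount stayed at 1. Gjb6 was then measured and joined Gja5 and Gjb2 as the third member at least 2-fold higher in Lgr5+ than in Lgr5− cells. Gjb2 and Gjb6 lie 18600 bases apart on the same strand, and the annotation places another protein-coding gene, Gm4491, between them on that strand. Gja3, best known from the lens, lies 40499 bases beyond Gjb2 and stood at 2.73 FPKM in Lgr5+ cells, 1.58 FPKM in Lgr5− cells and 1.74 FPKM in Sox9+ cells, without a 2-fold difference.

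The promoters of Gjb2 and Gjb6 are shown because both genes were lowest in the Lgr5− library. Each runs 5′ to 3′ on the minus strand over 300 bases placed as for Gja1 (GRCm38.p6, chr14:57104653-57104952 for Gjb2 and chr14:57133562-57133861 for Gjb6).
Gjb2: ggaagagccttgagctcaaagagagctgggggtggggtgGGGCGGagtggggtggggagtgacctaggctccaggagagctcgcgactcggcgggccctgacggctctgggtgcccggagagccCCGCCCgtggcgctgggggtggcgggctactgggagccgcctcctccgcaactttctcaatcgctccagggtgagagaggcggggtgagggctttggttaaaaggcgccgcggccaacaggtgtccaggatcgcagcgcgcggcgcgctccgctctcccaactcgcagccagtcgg
Gjb6: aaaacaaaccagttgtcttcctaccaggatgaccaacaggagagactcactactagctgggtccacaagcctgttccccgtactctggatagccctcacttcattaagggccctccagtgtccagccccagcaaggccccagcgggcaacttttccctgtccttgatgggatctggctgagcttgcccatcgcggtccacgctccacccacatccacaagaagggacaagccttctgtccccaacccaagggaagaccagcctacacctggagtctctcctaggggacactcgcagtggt
Capitals mark the 2 GC boxes of Gjb2, which begin 211 and 126 bases before the start, and Gjb6 held none. The Gjb2 window had 70.0% G and C and 27 CG pairs, and the Gjb6 window 57.3% and 6 pairs, against medians of 52.7% and 7 pairs over all promoter windows. The window of Gja1 had 47.7% and 8 pairs.

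Most epidermal markers were, like Gjb2, lowest in Lgr5− cells, but several did not share its near-equal levels in Lgr5+ and Sox9+ cells. Their summed FPKM over 14 genes was 69.3 in Lgr5+ cells, 29.3 in Lgr5− cells and 70.0 in Sox9+ cells, and 9 of the 13 genes that reached 1 FPKM in some library were lowest in Lgr5− cells. In Lgr5+ against Lgr5− cells, 7 of 12 measured markers were at least 2-fold higher, beside 3.64% of all measured genes. None was 2-fold lower, and the median log2 ratio of the markers was 1.40, beside 0.08 over all measured genes. In Lgr5+ against Sox9+ cells, 4 of 12 were higher and 2 lower, beside 4.33% and 3.96% of all measured genes. In Lgr5− against Sox9+ cells 5 of 10 were lower, beside 4.94%. Krtdap, a gene of differentiating keratinocytes, had the largest difference between Lgr5+ and Lgr5− cells and stood at 9.02 FPKM in Lgr5+ cells, 0.19 FPKM in Lgr5− cells and 0.62 FPKM in Sox9+ cells. Krt5, a keratin of the basal layer, stood at 12.6, 1.24 and 4.61 FPKM. Krtdap, Krt5, Krt15 (7.81, 1.78 and 2.78 FPKM) and Sfn (8.86, 1.38 and 3.54 FPKM) were the 4 genes at least 2-fold higher in Lgr5+ than in Sox9+ cells, unlike Gjb2. Krt14, the partner keratin of Krt5, stood at 6.76 FPKM in Lgr5+ cells, 0.54 FPKM in Lgr5− cells and 4.43 FPKM in Sox9+ cells. Perp, a desmosome protein gene, stood at 10.1, 1.6 and 11.9 FPKM. Krt18 (4.93, 9.41 and 26.9 FPKM) and Krt8 (0.77, 1.3 and 5.32 FPKM), keratins of simple epithelia, were the 2 genes at least 2-fold lower in Lgr5+ than in Sox9+ cells, so the alike sums of these libraries came from different genes. Krt18, Krt8, Epcam (3.9, 8.76 and 6.25 FPKM) and Grhl3 (0.69, 1.82 and 0.62 FPKM) stood higher in Lgr5− than in Lgr5+ cells, each by less than 2-fold, and Epcam and Grhl3 were highest in Lgr5− cells. No epidermal marker was listed at 0 in any library. The part of epidermal cells in the Gjb2 and Gjb6 values was not tested. The genes nearest to Gjb2 in pattern were Loxl3 (distance 0.0568), Wnk4 (0.0704), Cthrc1 (0.0865), Higd1a (0.0873) and Tmem45a (0.093).

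Gja4 and Gja5 encode the connexins of arterial endothelium. Gja5 (chromosome 3, 96904693 to 97077416, on the plus strand) stood at 1.58 FPKM in Lgr5+ cells, 0.16 FPKM in Lgr5− cells and 0.02 FPKM in Sox9+ cells. It was 2.22-fold higher in Lgr5+ than in Lgr5− cells and 2.53-fold higher in Lgr5+ than in Sox9+ cells, so the Lgr5+ library stood apart from both others. The annotated span of Gja5 overlaps Gpr89 and the antisense genes 9230114J08Rik and 4930573H18Rik on the other strand, and without strand such reads cannot be told apart. Gja4 (chromosome 4, 127311421 to 127314039, on the minus strand) stood at 0.49, 0.23 and 0.29 FPKM, also highest in Lgr5+ cells but low throughout. The calls of Gja5 and Gjb2 rest on values under 2 FPKM, and they ended with a pseudocount of 5 FPKM, a minimum of 5 FPKM or a 3-fold threshold.

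Most endothelial markers did not share the order of libraries of Gja5. Leaving out Erg, which is also a gene of the interzone, the summed FPKM of 11 endothelial markers was 23.4 in Lgr5+ cells, 30.2 in Lgr5− cells and 17.7 in Sox9+ cells, and 8 of the 11 were highest in Lgr5− cells. Kdr (1.64, 1.28 and 1.15 FPKM), Esam (2.33, 1.95 and 0.8 FPKM) and Eng (5.44, 5.2 and 4.12 FPKM) had the order of Gja5, each within 2-fold. With Erg the sums over 12 markers were 48.6, 40.2 and 28.0 FPKM. Of the 12, 10 were measured in Lgr5+ against Lgr5− cells, where Erg alone was 2-fold higher and none was 2-fold lower. Erg was again the 1 marker past 2-fold of 9 measured in Lgr5+ against Sox9+ cells, and none of 10 was past 2-fold in Lgr5− against Sox9+ cells. Pecam1, an adhesion molecule of endothelium, stood at 1.22, 2.01 and 0.72 FPKM. The arterial list of 8 genes summed to 70.5 FPKM in Lgr5+ cells, 76.7 FPKM in Lgr5− cells and 61.4 FPKM in Sox9+ cells, mostly from Efnb2, Nrp1 and Jag1, which digit mesenchyme also expresses. Its members Dll4 (0.35, 0.22 and 0.11 FPKM), Sox17 (0.54, 0.22 and 0.63 FPKM) and Hey2 (0.15, 0.53 and 0.7 FPKM) were low. Dll4 had the order of Gja5, Hey2 had the reverse order and Sox17 was highest in Sox9+ cells. Bmx was listed at 0 in Lgr5+ and in Lgr5− cells and stood at 0.18 FPKM in Sox9+ cells. Of the 4 arterial genes measured in each comparison, the 1 past 2-fold was Nrp1, higher in Lgr5+ than in Sox9+ cells.

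Some markers of vessel wall and muscle were, like Gja5, highest in Lgr5+ cells. Of 8 mural markers measured, Rgs5, Acta2, Cnn1 and Tagln were at least 2-fold higher in Lgr5+ than in Lgr5− cells and Pdgfrb was lower. Of all measured genes, 3.64% were higher and 1.89% lower in that comparison. Rgs5, a marker of pericytes, stood at 4.25 FPKM in Lgr5+ cells, 0.56 FPKM in Lgr5− cells and 0.54 FPKM in Sox9+ cells. The mural sums were alike, at 101.2, 95.0 and 100.7 FPKM. Most of each sum came from Cspg4 (52.0, 26.0 and 63.7 FPKM) and Pdgfrb (17.0, 47.1 and 19.6 FPKM). Of 8 mural genes at 1 FPKM or more in some library, 4 were highest in Lgr5+, 3 in Lgr5− and 1 in Sox9+ cells. Myh11 was listed at 0 in Lgr5+ cells. In Lgr5+ against Sox9+ cells, Rgs5 and Acta2 were the 2 of 7 past 2-fold, both higher, and in Lgr5− against Sox9+ cells Pdgfrb was higher and Cspg4 and Cnn1 lower, of 7. Skeletal muscle markers summed to 104.0 FPKM in Lgr5+ cells, 27.6 FPKM in Lgr5− cells and 19.7 FPKM in Sox9+ cells over 10 genes, with none at 0. Of 9 measured, 8 were at least 2-fold higher in Lgr5+ cells against each of the others. The share of all measured genes was 3.64% against Lgr5− cells and 4.33% against Sox9+ cells. Tnnc1, a troponin gene, stood at 12.3 FPKM in Lgr5+ cells, 1.07 FPKM in Lgr5− cells and 1.83 FPKM in Sox9+ cells. Myod1, a transcription factor of the muscle lineage, stood at 8.77, 1.69 and 0.46 FPKM. The part of these cells in the Gja5 values was not tested. On the scale of FPKM + 1, the genes nearest to Gja5 in pattern were Accs (distance 0.0538), Stc1 (0.0761), Tsc22d1 (0.0844), Gdf1 (0.0942) and Col6a1 (0.104). Accs stood at 8.32 FPKM in Lgr5+ cells, 3.37 FPKM in Lgr5− cells and 2.66 FPKM in Sox9+ cells. Its plain ratios were thus far smaller than those of Gja5, whose differences the added 1 FPKM shrinks. These genes are near Gja5 on that scale only.

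**Figure D4:**
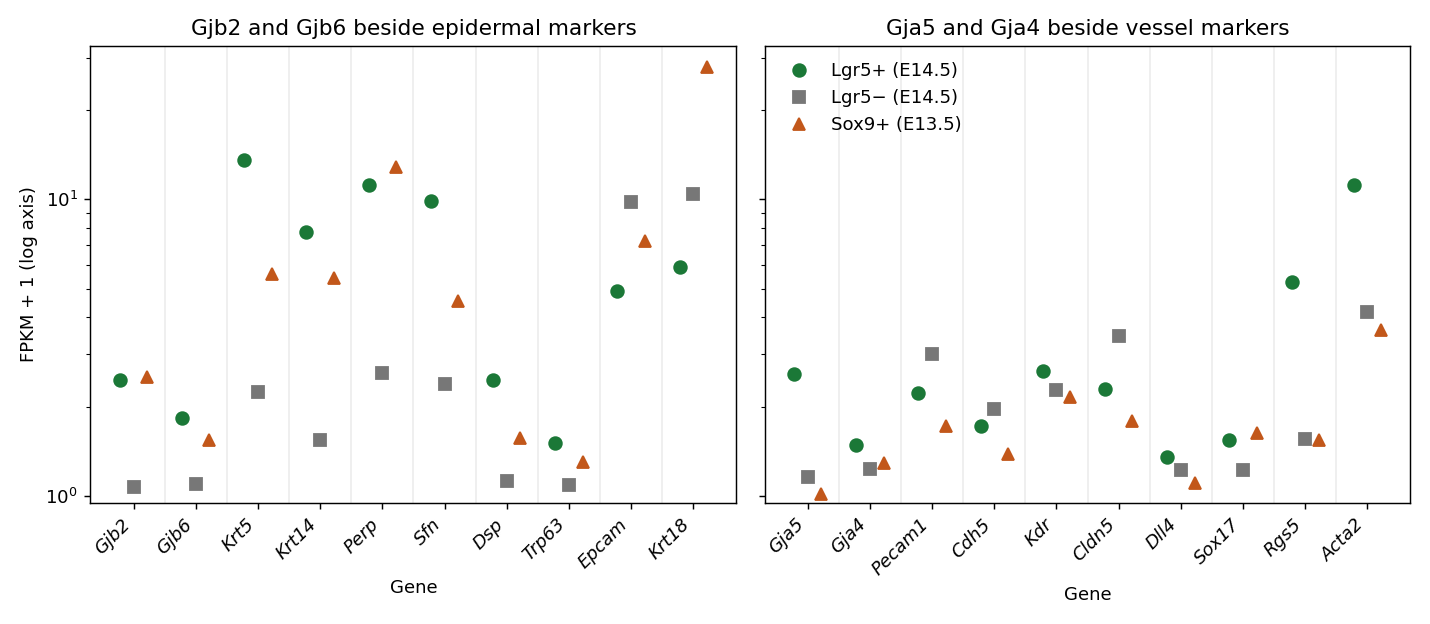
FPKM + 1 (vertical log axis) of Gjb2 and Gjb6 beside 8 epidermal markers (left) and of Gja5 and Gja4 beside 8 markers of endothelium and vessel wall (right) in the Lgr5+, Lgr5− and Sox9+ libraries, 1 point per library. Gjb2, Gjb6, Krt14 and Perp were lowest in Lgr5− cells, Epcam and Krt18 were lowest in Lgr5+ cells, and Gja5 and Rgs5 were highest in Lgr5+ cells while Pecam1 was highest in Lgr5− cells.

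Markers of other cells completed the check of what the libraries held. Macrophage markers, 10 genes, summed to 93.7 FPKM in Lgr5+ cells, 53.0 FPKM in Lgr5− cells and 12.8 FPKM in Sox9+ cells. Red blood cell markers, 8 genes, summed to 144.4, 3515 and 110.3 FPKM, and Schwann cell markers, 7 genes, to 13.7, 8.65 and 24.8 FPKM. The interzone and cartilage list of 12 genes summed to 3768, 1861 and 6468 FPKM. Most of each sum came from the cartilage collagen gene Col2a1 (2253, 1401 and 5304 FPKM). By gene the order was another, since 9 of the 12 were highest in Lgr5+ cells, such as Gdf5 (614.8, 71.7 and 59.9 FPKM). The 3 genes highest in Sox9+ cells were Col2a1, Acan and Matn1.

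The other 14 connexin genes were low. Gja3 in all libraries and Gjd3 in Lgr5− cells alone reached 1 FPKM, and none of those measured was past 2-fold in any comparison. Gjd3 stood at 0.87 FPKM in Lgr5+ cells, 2.07 FPKM in Lgr5− cells and 0.62 FPKM in Sox9+ cells. Gjd2, known from neurons, was listed at 0 in all 3 libraries. Gjb5, known from the epidermis like Gjb2, stood at 0.03, 0.12 and 0.25 FPKM in Lgr5+, Lgr5− and Sox9+ cells.

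Proteins that bind connexins or carry them to the membrane were mostly even. Of 12 measured, none passed 2-fold between Lgr5+ and Lgr5− cells. Tjp1, the scaffold that binds the tail of the Gja1 protein, stood at 6.59 FPKM in Lgr5+ cells, 9.12 FPKM in Lgr5− cells and 8.66 FPKM in Sox9+ cells. Cnst, which encodes the trafficking receptor consortin, stood at 11.9, 7.57 and 7.83 FPKM. Of the adhesion partners, Cdh11 was the 1 gene at least 2-fold higher in Lgr5+ than in Sox9+ cells, at 168.9 against 70.4 FPKM. Cdh2, which supports gap junctions in condensing mesenchyme, stood at 13.2, 21.4 and 8.47 FPKM, and Cav1 at 3.6, 6.92 and 2.19 FPKM, and these were the 2 genes at least 2-fold higher in Lgr5− than in Sox9+ cells. The median log2 ratio of the list was −0.07, 0.22 and 0.03 in the comparisons of Lgr5+ with Lgr5−, Lgr5+ with Sox9+ and Lgr5− with Sox9+ cells.

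Genes that act with pannexins in ATP signalling differed at a few points. Among other ATP release and volume channels, of which 7 or 8 were measured, Lrrc8c, a subunit of the volume-regulated anion channel, was the 1 gene past 2-fold, at 9.78 FPKM in Lgr5− cells against 22.7 FPKM in Sox9+ cells, and stood at 12.7 FPKM in Lgr5+ cells. Its obligate partner Lrrc8a stood at 7.42, 7.14 and 7.87 FPKM in Lgr5+, Lgr5− and Sox9+ cells. Of 7 P2X receptor genes, the ATP-gated channels, P2rx4 alone was measured, at 4.95, 4.44 and 3.15 FPKM, and P2rx7, often named as a partner of Panx1, stayed at 0.15, 0.22 and 0.27 FPKM. Of 7 P2Y receptor genes, P2ry1 alone was measured. P2ry1, a receptor for ADP, stood at 3.29 FPKM in Lgr5+ cells, 0.45 FPKM in Lgr5− cells and 4.14 FPKM in Sox9+ cells, which made it 2.96-fold higher in Lgr5+ than in Lgr5− cells and 3.54-fold lower in Lgr5− than in Sox9+ cells. Its order of libraries was that of Gjb2, with Lgr5− cells lowest.

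The list of ATP and pyrophosphate handling held 14 genes, of which 9 were measured. It is not limited to enzymes of the cell surface. Nt5e, the surface enzyme that makes adenosine from AMP, was highest in Lgr5+ cells, at 7.02 FPKM against 1.32 FPKM in Lgr5− cells and 2.7 FPKM in Sox9+ cells. It was 3.46-fold higher in Lgr5+ than in Lgr5− cells and 2.17-fold higher in Lgr5+ than in Sox9+ cells. Alpl, which is also on the maturation list, was the 1 gene of these 14 at least 2-fold lower in Lgr5+ cells in both comparisons. In Lgr5− against Sox9+ cells, Alpl, Entpd6 and Entpd3 were at least 2-fold lower, with Entpd6 at 4.55 against 10.5 FPKM and Entpd3, an ectonucleotidase of the cell surface, at 0.49 against 2.09 FPKM. Enpp1, which makes pyrophosphate from ATP, stood at 11.2, 6.35 and 6.88 FPKM in Lgr5+, Lgr5− and Sox9+ cells, and Ank, which carries ATP and pyrophosphate out of the cell, at 6.16, 6.06 and 5.79 FPKM. Of 4 adenosine receptor genes, Adora2b alone was measured, at 0.67, 1.22 and 1.29 FPKM, within 2-fold.

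**Figure D5:**
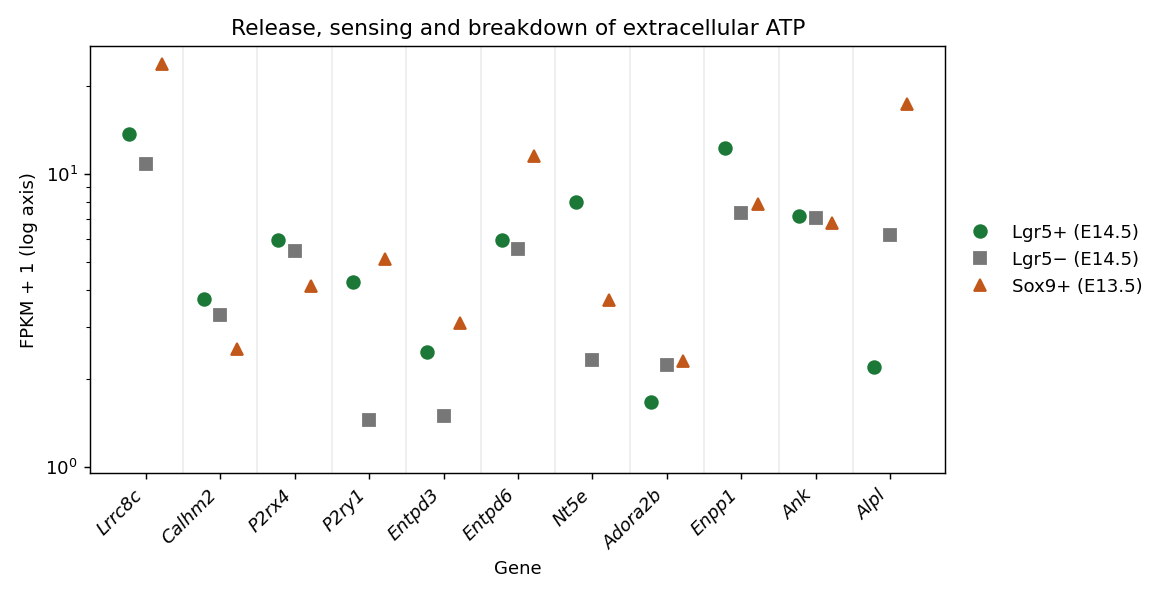
FPKM + 1 (vertical log axis) of 11 genes in the Lgr5+, Lgr5− and Sox9+ libraries, 1 point per library. The genes are from the lists of ATP release and volume channels, receptors for ATP or its products, and ATP and pyrophosphate handling. Nt5e was highest in Lgr5+ cells at 7.02 FPKM, Alpl and Lrrc8c were highest in Sox9+ cells, and P2ry1 was lowest in Lgr5− cells.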

How the data were processed

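RNA was measured in 3 libraries, 1 per sorted population. Per the labels' protocols, digits were digested, cells were sorted by GFP, and the SMARTer kit for ultra-low input was used on 10 ng of total RNA. Amplification from so little RNA raises the noise of weak genes. Per the submitters' processing notes, HISAT2 and the build mm10 (GRCm38) were used. Quantifier, annotation and treatment of multi-mapped reads are not known from these sources. The authors deposited FPKM, rounded to 2 decimals, which are shares of a library and not molecules.

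From these, log2 ratios of FPKM + 1 were computed in Python 3.11.15 with pandas 2.3.3 and tested on simulated data. No test was possible with 1 library per group. The genes and gene lists, and the rule for named genes, were chosen with earlier results of these data known. That rule covers all 9 genes, up to 4 genes of each list past 2-fold in each direction and comparison, partners of the 9 genes, and the 5 genes nearest in pattern to each member past 2-fold. It was not followed throughout. Not every gene it covers is named, and several marker lists are given by their sums. Some genes were named though within 2-fold or under 1 FPKM, and they were chosen after their values were seen. Examples are Epcam, Grhl3, Pecam1, Kdr, Esam, Eng, Dll4, Sox17 and Gjb5. Symbols were matched through RefSeq synonyms where needed, such as Fam26f for Calhm6, and Calhm3 had no match. Gene models are from GENCODE M21 and promoters from RefSeq (GRCm38.p6). The values of some other connexin genes are not reported here.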

Additional observations from a re-analysis of the deposited data

How the results depend on the processing

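No paired analysis was possible because each population has 1 library, and for the same reason no library could be left out. Of the 12 alternatives, 9 left each measured member on its side of the 2-fold line in every comparison, and rescaling to TPM, 1 of these, added Gjb6, which was under 1 FPKM before, so that 3 members were higher in Lgr5+ than in Lgr5− cells. With a pseudocount of 5 FPKM, a minimum of 5 FPKM or a 3-fold threshold, 0 members in place of 2 were higher in Lgr5+ than in Lgr5− cells, 0 in place of 1 were higher in Lgr5+ than in Sox9+ cells and 1 in place of 2 was lower in Lgr5− than in Sox9+ cells. The call that remained was Panx3. Not all 12 alternatives could move a call. Without the filter on low values no call can change, because a gene under 1 FPKM cannot reach 2-fold on FPKM + 1. Settings of the minimum or the fold threshold leave each ratio as it was. The log2 ratio of Panx3 ran from −4.49 to −2.41 in Lgr5+ against Sox9+ cells and from −4.46 to −2.41 in Lgr5− against Sox9+ cells. The ratio of Gja5 in Lgr5+ over Lgr5− cells ran from 0.35 to 2.69 and that of Gjb2 from 0.35 to 3.20, which follows from the pseudocount at low values. Gja1 in Lgr5+ over Lgr5− cells ran from −0.02 to 0.17.

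Counts over all genes moved more, by construction where the threshold or the pseudocount changed. For Lgr5+ against Lgr5− cells (453 higher and 235 lower) they were 694 and 458 with a pseudocount of 0.1, 202 and 81 with a pseudocount of 5, 1178 and 741 at 1.5-fold, 169 and 61 at 3-fold, and 355 lower after rescaling to TPM. For Lgr5+ against Sox9+ cells (541 and 495) they were 900 and 785 with a pseudocount of 0.1, 193 and 193 with a pseudocount of 5, 1574 and 1237 at 1.5-fold, 173 and 155 at 3-fold, and 981 higher after rescaling to TPM. For Lgr5− against Sox9+ cells (384 and 617) they were 721 and 958 with a pseudocount of 0.1, 139 and 273 with a pseudocount of 5, 1186 and 1596 at 1.5-fold, 118 and 196 at 3-fold, 706 higher after rescaling to TPM and 253 higher at a minimum of 5 FPKM. Rescaling to TPM divides each library by its summed FPKM, which was 534025 in Lgr5+ cells, 547115 in Lgr5− cells and 593871 in Sox9+ cells. It also raised all values while the pseudocount and the minimum stayed at 1, which acts like lowering both. The median log2 ratio of all genes was then 0.21 in place of 0.06 in Lgr5+ over Sox9+ cells, and 0.10 in place of −0.01 in Lgr5− over Sox9+ cells. Depth is unknown, which limits what the values of Gja4, Gja5, Gjb2, Gjb6 and Panx2 can show.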
